A study of Rattus norvegicus with 12 samples.

Results

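The genes described here encode respiratory complexes II, III, IV and V of mitochondria and cytochrome c, measured in denervated and sham-operated rat urinary bladder. Members were the genes whose platform symbol is Sdha, Sdhb, Sdhc, Sdhd, Cyc1 or Cycs, or begins with Uqcr, Atp5, or Cox followed by 4, 5, 6, 7 or 8, read from probe sets that carry 1 symbol only. The rule gave 53 of 18166 genes tested. They comprise 4 genes of complex II, 10 of complex III, 1 of cytochrome c, 18 of complex IV and 20 of complex V. Of the 53, 43 are genes of named subunits, counting the ATP synthase inhibitor Atp5if1 and the supercomplex factor Cox7a2l, and 10 carry the names of copies or pseudogenes. RefSeq lists 3 of those 10 as pseudogenes. No subunit encoded by mitochondrial DNA was measured under a gene name, so all results concern nuclear genes.

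The 2 groups were 6 samples of denervated bladder and 6 samples of bladder from sham-operated rats. Denervated bladder was taken 10 days after an operation in which the ganglia on both sides were frozen. The animals were Sprague Dawley females aged about 3 months, and each sample was read on 1 array. The labels describe the tissue as nearly all smooth muscle, and the smooth muscle genes Myh11, Tagln, Des and Actg2 were bright in both groups, with means of 12.63 to 13.12 in denervated and 12.91 to 13.32 in sham arrays (log2 expression). Uroplakin genes of the urothelium were bright too, with Upk1a at 12.10 in denervated and 12.72 in sham arrays. The labels leave unsaid whether the samples of a group are different animals, and p-values therefore measure only the spread between these samples, which may be technical.

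The respiratory chain passes electrons from NADH and succinate to oxygen and pumps protons out of the mitochondrial matrix, and ATP synthase (complex V) uses the returning protons to make ATP. Complex II oxidises succinate, complex III passes electrons to the mobile carrier cytochrome c, and complex IV, cytochrome c oxidase, hands them to oxygen. Smooth muscle of the bladder draws on this ATP for contraction and calcium pumping. Several subunits of complexes IV and V exist as isoforms from separate genes, some of them typical of striated muscle, testis or low oxygen.

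Transcripts of these complexes were lower in the denervated bladders by small amounts. Of the 53 members 26 fell, 1 rose (Atp5pd) and 26 were not called, where fell and rose mean an adjusted p under 0.05 in the limma fit over all genes. Among all genes tested, 28.7% were called, with 16.9% lower and 11.9% higher, whereas 49.1% of the members fell. The median member changed by -0.21 on the log2 scale, beside a median of -0.04 over all genes, and single members lay between -0.50 and 0.32. In 10 members all denervated values were below all sham values, and 0 members showed the opposite; over all genes those shares were 7.59% and 5.76%. Denervated replicate 2 lay between the groups in a principal component analysis; without it 26 members fell and 2 rose (20.2% and 14.4% of all genes), with a median of -0.22. Among the fits that left out 1 array, the count was lowest without sham replicate 6, where 17 fell and 1 rose (14.5% and 10.5% of all genes). With the replicate number as a block, 16 fell and 0 rose (13.6% and 10.9% of all genes).

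**Figure D1:**
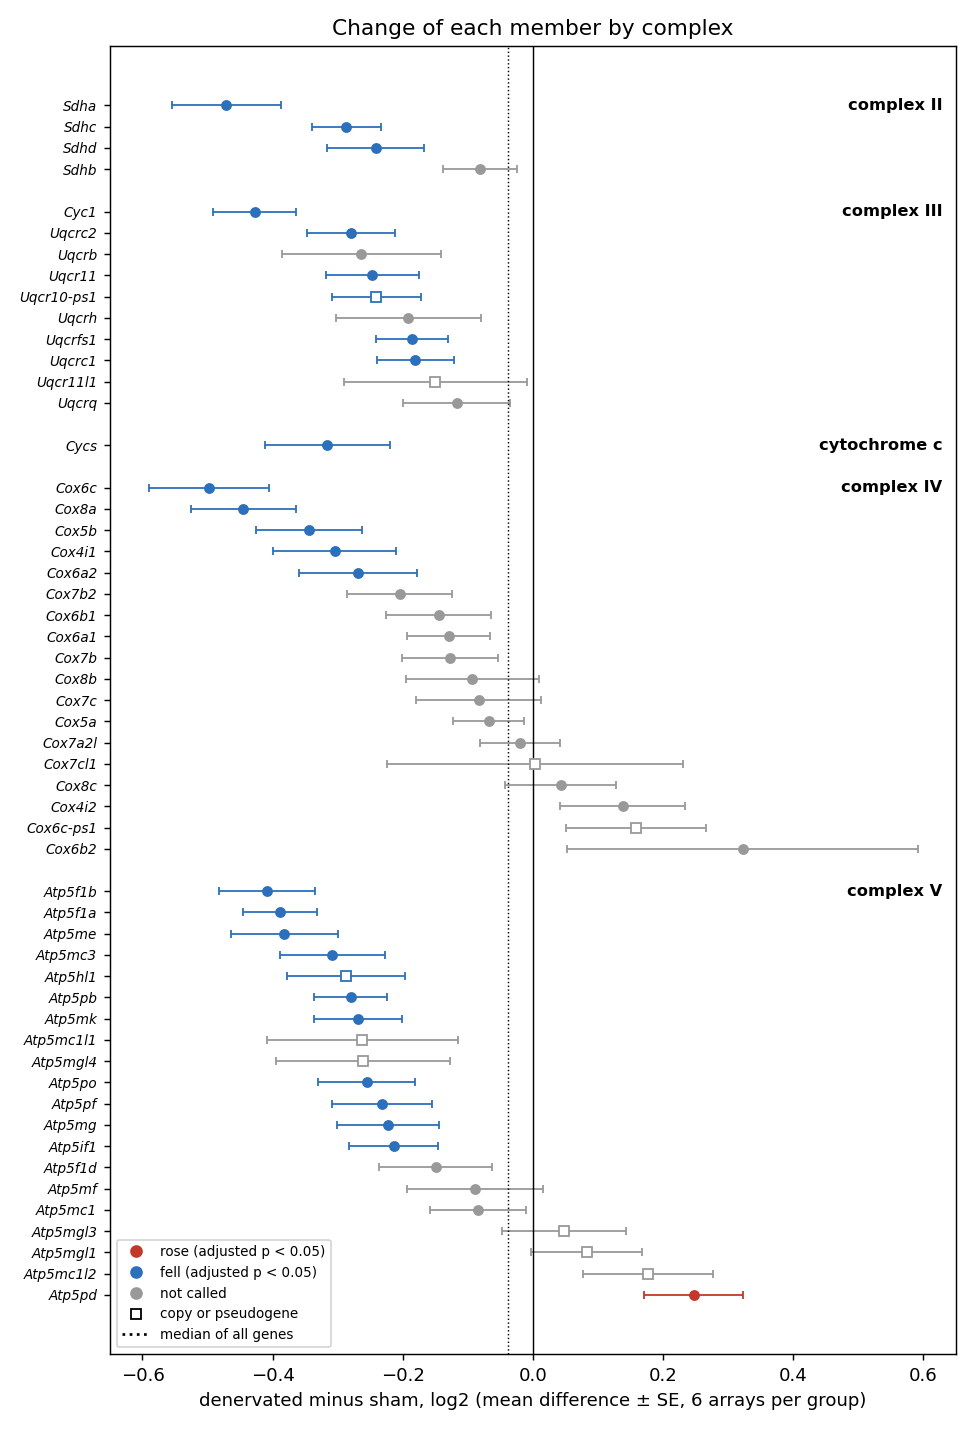
Change of each of the 53 members, denervated minus sham, in log2 units (x axis; mean difference ± SE, 6 arrays per group), grouped by complex and ordered by size within it. Blue points fell, the red point (Atp5pd) rose, grey points were not called, open squares are copies or pseudogenes, and the dotted line marks the median of all genes at -0.04.

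Of the 26 members that fell, 24 had a mean signal above that of the median gene, a measure of the probe set and not of abundance. However, 38 of all 53 members were that bright. Among all genes too, most falls were in bright genes, since 710 of the 3063 that fell were dimmer than the median gene. Of 31 members among the brightest 25% of all genes by mean level, 21 fell, 0 rose and all 31 differences were below 0, while 27.6% of all such bright genes fell. In 8 of the 31 the groups did not overlap, and 14.3% of all such bright genes had every denervated value below every sham value. Of 15 members dimmer than the median gene, 2 fell (13.3%), beside 7.82% of all genes dimmer than it. Cox6c, with the largest fall of all members, was not among the brightest 25%. Across the 53 members the Spearman correlation between sham mean and change was -0.47, and across the 43 named subunits it was -0.39. The sham mean is part of both measures. The members also share their arrays, and genes are not independent replicates. Bulk tissue cannot tell fewer cells of a type from less RNA per cell.

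For 40 members the RefSeq promoter table (build GRCr8) held a window, and the 250 bases before the start were searched on both strands for 3 sequences known from respiratory gene promoters. The core of the site of nuclear respiratory factor NRF1, spelled GCGCA, any base, then GCGC, was present in 4 of 40 members (10.0%) and in 3.75% of all 33469 windows of that length. CCGGAAG, read by ETS factors such as GABP, was present in 12 of 40 members (30.0%), against 7.27% of all windows. AAGGTCA, a half-site of oestrogen-related receptors, was present in 4 of 40 members (10.0%), against 3.99%. The windows counted for comparison were not limited to the 18166 genes tested or to genes like the members. Of 21 members with a window that fell, 4 held the first, 9 the second and 3 the third sequence. Of 19 members with a window that were not called, 0, 3 and 1 did. No motif overlapped another in the windows shown. The 120 bases before the start are shown for 4 members that fell and held a motif, one or more per complex for complexes II, IV and V, with the motifs in capitals; a match is a match of letters only.
Sdha: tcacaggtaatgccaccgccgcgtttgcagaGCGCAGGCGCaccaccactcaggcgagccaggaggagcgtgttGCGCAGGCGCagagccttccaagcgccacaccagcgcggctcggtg
Atp5po: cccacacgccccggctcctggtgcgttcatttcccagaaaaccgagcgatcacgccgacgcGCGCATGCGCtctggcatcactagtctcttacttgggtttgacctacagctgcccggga
Cox8a: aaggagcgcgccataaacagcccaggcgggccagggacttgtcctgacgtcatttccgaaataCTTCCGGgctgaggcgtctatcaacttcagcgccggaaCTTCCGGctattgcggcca
Atp5f1a: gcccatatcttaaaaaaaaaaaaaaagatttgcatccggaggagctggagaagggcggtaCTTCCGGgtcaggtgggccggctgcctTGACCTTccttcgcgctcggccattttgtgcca
The Sdha window lies at chr1:30764433-30764552 on the plus strand and holds the NRF1 core at 2 places, beginning 89 and 46 bases before the start. The Atp5po window lies at chr11:44657484-44657603 on the minus strand, with the NRF1 core at 59 bases. The Cox8a window, at chr1:213833624-213833743 on the minus strand, holds the ETS sequence in reverse at 57 and 19 bases. The Atp5f1a window, at chr18:73567417-73567536 on the plus strand, holds the ETS sequence in reverse at 60 bases and the receptor half-site in reverse at 33 bases.

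Complex II, succinate dehydrogenase, had 3 of 4 members lower. Sdha, the flavoprotein that binds succinate, read 9.85, 9.94 and 10.38 (lowest, median and highest log2 value) in denervated arrays, against 10.43, 10.48 and 10.55 in sham arrays. The groups did not overlap, and the highest denervated value was that of replicate 2. Sdha fell by 0.47 ± 0.08 (SE, n = 6 per group), which is 27.8% lower (limma adjusted p = 0.00124). Sdhc, a membrane anchor of the complex, read 9.31, 9.41 and 9.53 in denervated and 9.63, 9.72 and 9.74 in sham arrays. Its groups did not overlap either, and it fell by 0.29 ± 0.05 (adjusted p = 0.00165). The other anchor, Sdhd, read 8.78, 9.05 and 9.23 in denervated and 9.18, 9.26 and 9.33 in sham arrays, so that the groups overlapped through denervated replicate 2. Sdhd fell by 0.24 ± 0.07 (adjusted p = 0.0270), a call lost without denervated replicate 4 or 5 or sham replicate 1, 2 or 3. Sdhb, the iron-sulphur subunit, was not called at -0.08 ± 0.06 (adjusted p = 0.324), with means of 9.23 in denervated and 9.31 in sham arrays.

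Complex III had 6 of 10 members lower and 0 higher, with a median of -0.22. Cyc1, the haem subunit that passes electrons to cytochrome c, read 8.67, 8.77 and 8.95 in denervated arrays, against 9.04, 9.23 and 9.28 in sham arrays. The groups did not overlap, and sham replicate 1 was lowest of its group. Cyc1 fell by 0.43 ± 0.06, or 25.6% (adjusted p = 0.000441). Uqcrc2, a core protein, read 10.35, 10.46 and 10.71 in denervated and 10.67, 10.76 and 10.83 in sham arrays, and only denervated replicate 2 reached into the sham range. It fell by 0.28 ± 0.07 (adjusted p = 0.00777). The Rieske iron-sulphur protein Uqcrfs1 (-0.19 ± 0.06), the core protein Uqcrc1 (-0.18 ± 0.06), the small subunit Uqcr11 (-0.25 ± 0.07) and the pseudogene Uqcr10-ps1 (-0.24 ± 0.07) fell too, with adjusted p of 0.0175 to 0.0350. The call of Uqcrc1 was lost in 8 of the 12 fits without 1 array, and that of Uqcrfs1 without denervated replicate 5 or sham replicate 4 or 6. Uqcrb (-0.26 ± 0.12), Uqcrh (-0.19 ± 0.11), Uqcrq (-0.12 ± 0.08) and the copy Uqcr11l1 (-0.15 ± 0.14) were not called. Uqcrh, the hinge subunit, was at 10.37 in denervated replicate 6, whereas the remaining 5 denervated arrays read 10.89 to 11.18.

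Cytochrome c itself (Cycs) read 9.25, 9.42 and 9.65 in denervated and 9.45, 9.82 and 9.95 in sham arrays. The groups overlapped, since sham replicates 3 and 4 were low. Cycs fell by 0.32 ± 0.10 (adjusted p = 0.0252), and the call was lost without denervated replicate 3 or sham replicate 1, 2, 5 or 6. A second probe set of Cycs, dimmer, differed by -0.15 between the groups, and with the mean of both the adjusted p was 0.104.

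Complex IV had 5 of 18 members lower (27.8%, beside 16.9% of all genes) and 0 higher (11.9% of all genes), with a median of -0.11. At an unadjusted p under 0.05 in limma the counts were 6 and 0. Cox6c, a small subunit of the membrane part, read 6.99, 7.19 and 7.59 in denervated and 7.60, 7.69 and 7.86 in sham arrays. The groups did not overlap, though denervated replicate 2 lay just under the lowest sham array. Cox6c fell by 0.50 ± 0.09, or 29.2%, the largest fall among the 53 (adjusted p = 0.00160). Cox8a, the common isoform of the smallest subunit, read 10.23, 10.43 and 10.70 in denervated and 10.74, 10.94 and 10.99 in sham arrays, without overlap. It fell by 0.45 ± 0.08, or 26.6% (adjusted p = 0.00141). Cox5b, a matrix-side subunit, read 8.88, 9.19 and 9.22 in denervated and 9.32, 9.46 and 9.70 in sham arrays, again without overlap. It fell by 0.34 ± 0.08 (adjusted p = 0.00689). Its partner Cox5a was not called at -0.07 ± 0.05 (adjusted p = 0.401), with means of 10.43 in denervated and 10.50 in sham arrays. Cox7b (-0.13 ± 0.07), Cox7c (-0.08 ± 0.10) and Cox7a2l (-0.02 ± 0.06), which joins complexes III and IV, were not called either. Nor were the testis isoforms Cox7b2 (-0.20) and Cox8c (0.04), the copy Cox7cl1 (0.00) and the pseudogene Cox6c-ps1 (0.16), all dim, with sham means of 3.16 to 4.59.

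Complex V, ATP synthase, had 11 of 20 members lower and 1 higher (55.0% and 5.0%), with a median of -0.24. Of all genes, 16.9% were lower and 11.9% higher. The catalytic beta subunit Atp5f1b read 10.66, 10.73 and 11.09 in denervated and 11.14, 11.18 and 11.33 in sham arrays. Its partner in the catalytic head, the alpha subunit Atp5f1a, read 10.82, 10.83 and 11.03 in denervated and 11.19, 11.25 and 11.38 in sham arrays. Neither overlapped between the groups, and denervated replicate 2 was the highest denervated array in both. Atp5f1b fell by 0.41 ± 0.07, or 24.6% (adjusted p = 0.00139), and Atp5f1a by 0.39 ± 0.06, or 23.6% (adjusted p = 0.000430). Atp5me, a small subunit of the membrane part, read 8.34, 8.63 and 8.68 in denervated and 8.68, 9.00 and 9.11 in sham arrays, where sham replicate 1 was low. It fell by 0.38 ± 0.08 (adjusted p = 0.00392).

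Further members of ATP synthase fell by less. The stalk subunit Atp5pb fell by 0.28 ± 0.06 without overlap between the groups (adjusted p = 0.00262), and Atp5mk, which helps ATP synthase form dimers, by 0.27 ± 0.07 (adjusted p = 0.00999). The stalk subunits Atp5po (-0.26) and Atp5pf (-0.23), the membrane subunit Atp5mg (-0.22), the inhibitor Atp5if1 (-0.21) and the pseudogene Atp5hl1 (-0.29) fell as well, with adjusted p of 0.0195 to 0.0477. The call of Atp5mg was lost without any 1 of 10 arrays, and those of Atp5pf, Atp5if1 and Atp5hl1 without any 1 of 5 to 7 arrays. Of the uncalled members, Atp5f1d (-0.15 ± 0.09) read 10.16 in denervated replicate 6, whereas the remaining 5 denervated arrays read 10.50 to 10.66. Atp5mf differed by -0.09, and the copies Atp5mc1l1, Atp5mgl4, Atp5mgl3, Atp5mgl1 and Atp5mc1l2 lay between -0.26 and 0.18.

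Atp5pd, the stalk subunit d, was the exception. It read 6.95, 7.09 and 7.29 in denervated arrays, against 6.70, 6.87 and 7.00 in sham arrays. The groups overlapped, with denervated replicate 6 lowest of its group. Atp5pd rose by 0.25 ± 0.08, or 1.19-fold (adjusted p = 0.0261). The call was lost without denervated replicate 1 or 3 or sham replicate 1, 3 or 5, where the adjusted p was 0.0557 to 0.0598, and with the replicate number as a block (adjusted p = 0.0948). Atp5pd has near copies, among them Atp5hl1, whose own probe set fell, so the signal of the gene itself is uncertain.

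**Figure D2:**
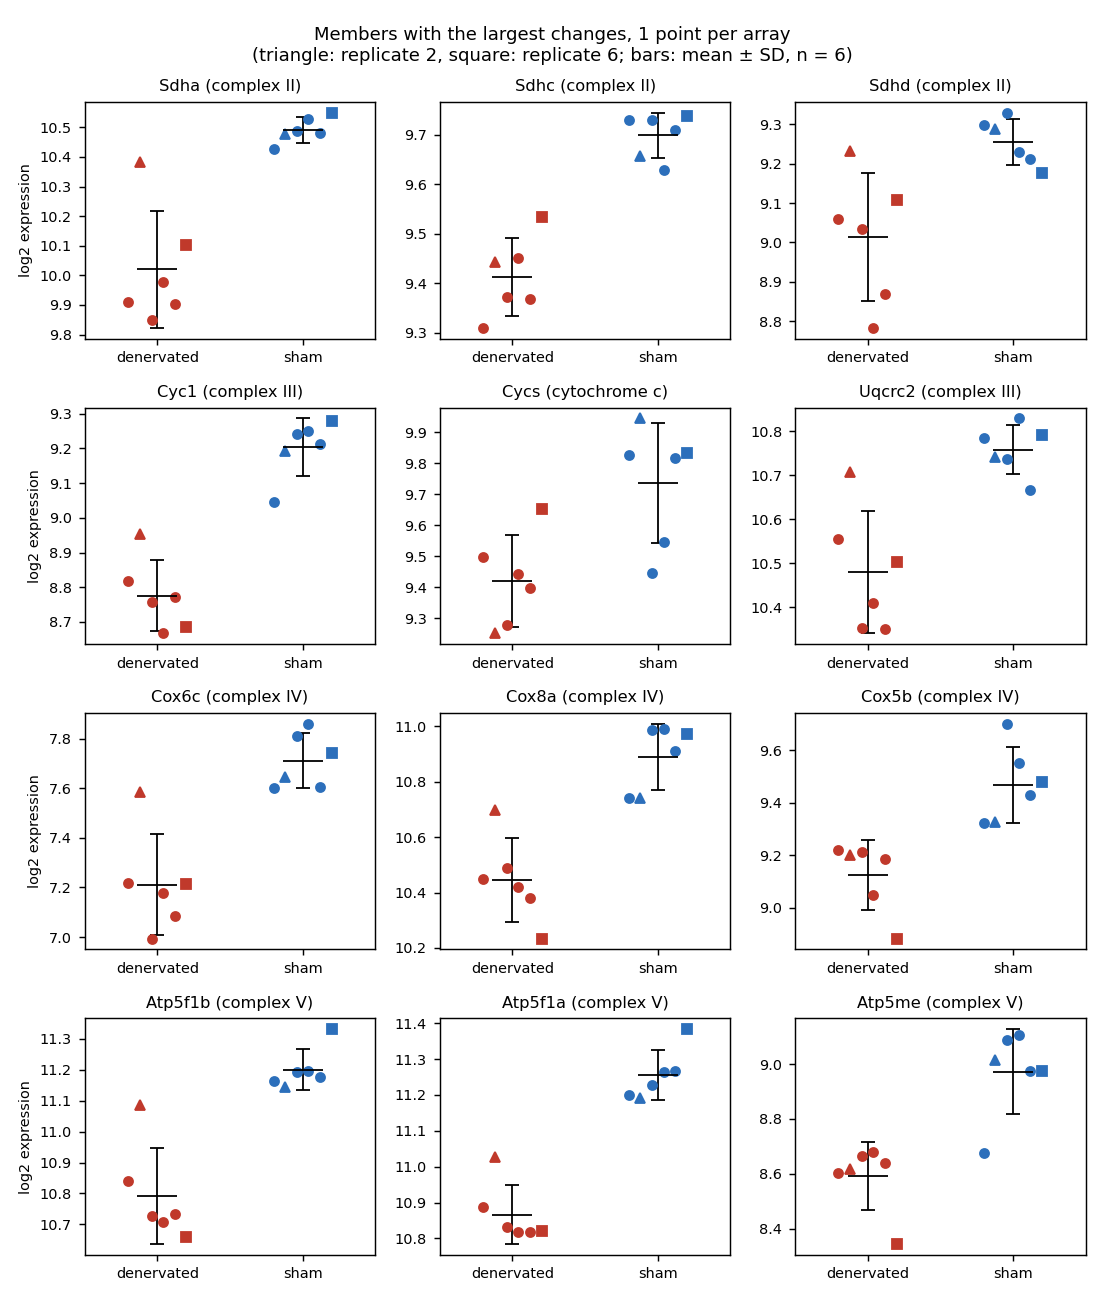
Log2 expression (y axis, a separate scale per panel) of the 3 members of largest absolute change in each of complex II, complex III with cytochrome c, complex IV and complex V, with 6 denervated arrays left and 6 sham arrays right. Bars give mean ± SD; triangles are replicate 2 and squares replicate 6, and for Sdha, Cox6c, Cox8a, Cyc1, Uqcrc2, Sdhd, Atp5f1a and Atp5f1b the highest denervated point is replicate 2.

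Isoforms of 1 subunit were compared as the difference of their log2 values within an array, tested with an exact permutation test over the 12 arrays (two-sided, adjusted over the 5 pairs of 7 that were measured; the smallest p this design allows is 0.00216). Such a difference shows unequal change and not which isoform is more abundant. Cox4i2, the isoform tied to low oxygen, read 6.50, 6.78 and 6.98 in denervated and 6.45, 6.60 and 6.79 in sham arrays and was not called (0.14 ± 0.10, adjusted p = 0.320). The common Cox4i1 read 9.57, 9.77 and 10.19 in denervated and 9.95, 10.10 and 10.19 in sham arrays and fell by 0.30 ± 0.09 (adjusted p = 0.0271). Denervated replicate 2 was at the top of the sham range for Cox4i1, and the call was lost without denervated replicate 3, 5 or 6 or sham replicate 3, 4 or 6. The difference Cox4i2 minus Cox4i1 was higher in denervated arrays, at -3.04 ± 0.29, than in sham arrays, at -3.48 ± 0.14 (SD, n = 6 each), a shift of 0.44 ± 0.13 (SE; exact p = 0.00866, adjusted p = 0.0433). It lay above the sham mean in 6 of 6 denervated arrays, but the call held without 1 array only when denervated replicate 2 or sham replicate 1 was left out. In the other 10 such fits the adjusted p was 0.0541 to 0.0866.

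The remaining pairs did not pass the threshold after adjustment. Cox8b, the striated muscle isoform, was dim, at 4.77, 4.98 and 5.22 in denervated and 4.83, 5.06 and 5.31 in sham arrays (-0.09 ± 0.10), and Cox8b minus Cox8a shifted by 0.35 ± 0.13 (exact p = 0.0303, adjusted p = 0.0649). Atp5mc1 and Atp5mc3 encode the same rotor protein of ATP synthase. Atp5mc3 read 9.29, 9.41 and 9.77 in denervated and 9.69, 9.75 and 9.91 in sham arrays and fell by 0.31 ± 0.08 (adjusted p = 0.0118). Atp5mc1 read 7.66, 7.78 and 7.86 in denervated and 7.64, 7.87 and 8.01 in sham arrays and was not called (-0.08 ± 0.07). Their difference shifted by 0.22 ± 0.09 (exact p = 0.0390, adjusted p = 0.0649). Both of these shifts passed the threshold without denervated replicate 2 (adjusted p = 0.0469 each), and that of Cox8b also without sham replicate 1 (adjusted p = 0.0487).

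The striated muscle isoform Cox6a2 read 5.70, 5.84 and 5.93 in denervated and 5.90, 6.05 and 6.47 in sham arrays. It fell by 0.27 ± 0.09 (adjusted p = 0.0394), a call lost in 8 of the 12 fits without 1 array. The common Cox6a1 read 11.24, 11.38 and 11.43 in denervated and 11.33, 11.54 and 11.62 in sham arrays and was not called (-0.13 ± 0.06, adjusted p = 0.155). Cox6a2 minus Cox6a1 shifted by -0.14 ± 0.09 (exact p = 0.149, adjusted p = 0.149). The testis isoform Cox6b2 varied most of all members, with 6.29, 7.48 and 8.03 in denervated and 6.50, 7.05 and 7.43 in sham arrays (0.32 ± 0.27, adjusted p = 0.415). Its denervated values split, with replicates 2 and 6 at 6.73 and 6.29 and the other 4 between 7.40 and 8.03. Cox6b1 read 8.62, 8.78 and 8.89 in denervated and 8.70, 8.91 and 9.11 in sham arrays and was not called (-0.14 ± 0.08, adjusted p = 0.208), and a second, dim probe set of Cox6b1 differed by 0.14. Cox6b2 minus Cox6b1 shifted by 0.47 ± 0.28 (exact p = 0.130, adjusted p = 0.149).

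**Figure D3:**
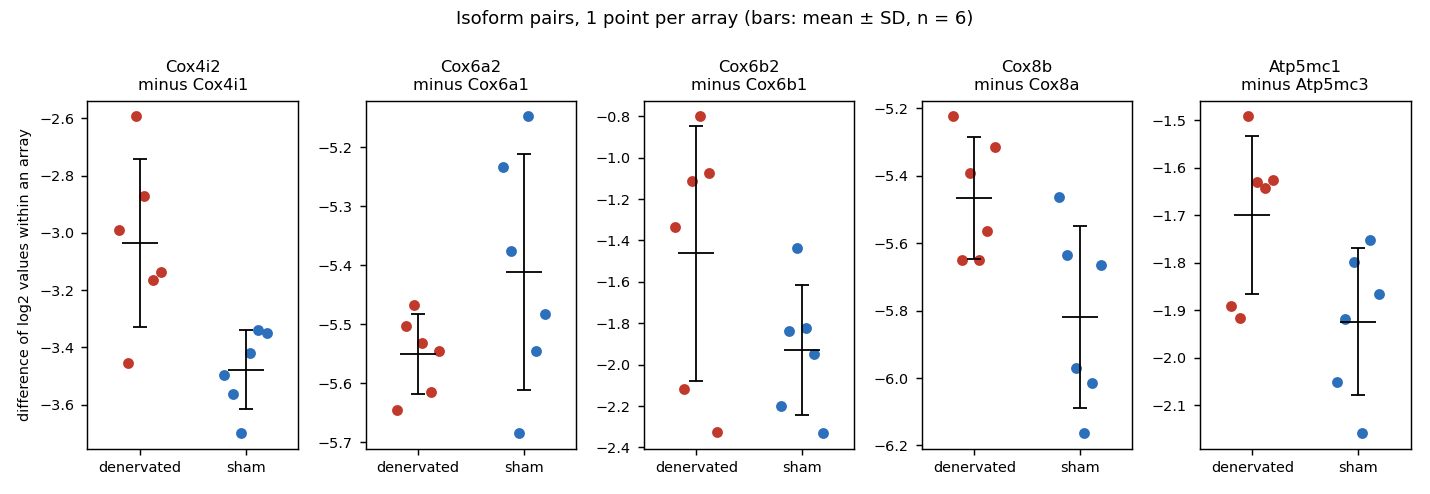
Difference of the log2 values of 2 isoforms within each array (y axis, a separate scale per panel), with 6 denervated arrays left and 6 sham arrays right in each of 5 panels; bars give mean ± SD. Of the 5, only the shift of Cox4i2 minus Cox4i1, which averaged -3.04 in denervated and -3.48 in sham arrays, passed the threshold after adjustment.

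The denervated arrays differed in how far each complex fell. The mean over all 53 members lay 0.15 to 0.27 below the sham mean in 5 denervated arrays and 0.11 below it in replicate 2, while the sham arrays lay between -0.09 and 0.04. Replicate 2 was the highest of the 6 denervated arrays for 12 of the 26 members that fell, and replicate 6 the lowest for 11 of them. In replicate 6 the named subunits of complexes III, IV and V were lower than in any other denervated array, at -0.39, -0.29 and -0.38, against -0.25 to -0.13, -0.15 to -0.07 and -0.20 to -0.13. The 4 subunits of complex II did not follow. They averaged -0.16 in replicate 6 and -0.14 in replicate 2, and -0.36 to -0.31 in replicates 1, 3, 4 and 5. Sham replicate 1 was the lowest sham array for complexes III, IV and V, at -0.10, -0.12 and -0.13. Without denervated replicate 6, 21 members fell and 1 rose (17.5% and 12.2% of all genes), and the median was -0.20.

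**Figure D4:**
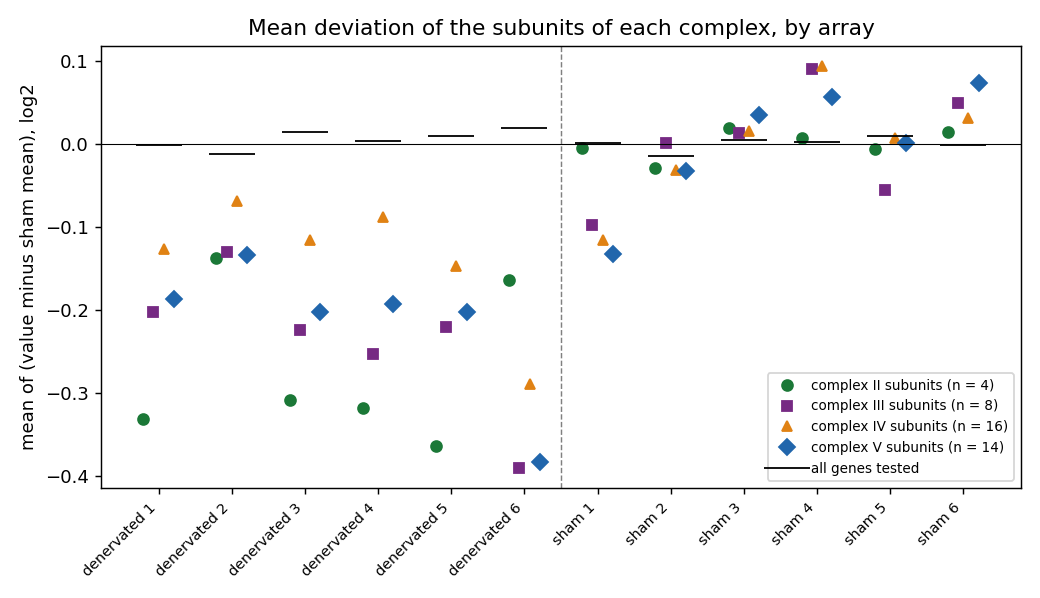
Mean over the named subunits of each complex of the value minus the gene's sham mean, in log2 units (y axis), for 6 denervated arrays left and 6 sham arrays right. Complexes III, IV and V were lowest in denervated replicate 6, complex II in replicates 1, 3, 4 and 5, and black bars for all genes stay within 0.02 of 0.

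Genes that build these complexes or supply them were read from 7 further lists with 57 measured genes, of which 16 fell and 0 rose (28.1% fell, median -0.15). Over all genes 16.9% fell and 11.9% rose. At an unadjusted p under 0.05 in limma 3 were higher, namely Ndufa4l2 (0.58), Pprc1 (0.22) and Hif1a (0.16). Of 18 assembly factors of complex IV, 3 fell: Coa5 by 0.41 ± 0.08, Cox20 by 0.30 ± 0.06 and the copper chaperone Cox17 by 0.22 ± 0.07, with adjusted p of 0.00178, 0.00259 and 0.0315. Of 4 for complex V, 3 fell, namely Tmem70 (-0.38), Atpaf1 (-0.26) and Fmc1 (-0.25). Of 3 for complex II, Sdhaf3 fell by 0.42 ± 0.09, and of 5 for complex III, 0 passed the threshold in either direction (1 lower and 0 higher at an unadjusted p under 0.05 in limma). Of 6 genes that move ATP, phosphate or metabolites across the mitochondrial membranes, 4 fell, among them the outer membrane channel Vdac2 (-0.27), the ATP carrier Slc25a4 (-0.25) and the phosphate carrier Slc25a3 (-0.23). Ndufa4, which is bound to complex IV, was the 1 gene of 6 in the supercomplex and hypoxia list to fall (-0.32 ± 0.06, adjusted p = 0.00123).

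Of 15 nuclear regulators of respiratory genes, 4 fell (26.7%, beside 16.9% of all genes). The transcriptional coactivator Ppargc1a, which drives mitochondrial gene expression, had a mean of 5.40 in denervated and 7.05 in sham arrays and fell by 1.65 ± 0.14 (adjusted p = 2.78e-05). Its relative Ppargc1b fell by 0.64 ± 0.15 (adjusted p = 0.00720), and Gabpa, the DNA-binding subunit of GABP, by 0.23 ± 0.06 (adjusted p = 0.0108). Nrf1 (0.02) and Esrra (0.02), which bind sequences searched above, were not called. Ppargc1a read 6.11 in denervated replicate 2 and 5.12 to 5.45 in the 5 remaining denervated arrays. The mean over the members was also nearest to sham in replicate 2 (-0.11), the array between the groups in the principal component analysis. Denervated replicate 5, with the lowest Ppargc1a (5.12), had the next smallest mean fall of the members (-0.15). That rank came from the 10 copies and pseudogenes, which averaged 0.08 in this array. Over the 43 named subunits replicate 5 was at -0.20, and only replicate 6 was lower (-0.32). A link between Ppargc1a and the members was not tested.

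Complex I was set beside these complexes as the nearest group. Its 32 genes were Ndufa, Ndufb, Ndufc, Ndufs or Ndufv and a number with nothing after it, Ndufa4 included. Of these 22 fell (68.75%, beside 16.9% of all genes) and 0 rose, with a median of -0.27. At an unadjusted p under 0.05 in limma 27 were lower and 0 higher. The mean of complex I was also lowest in denervated replicate 6 (-0.41). With 7 further symbols that go on after the number, 26 of 39 fell and 0 rose, with a median of -0.26, and the paralogue Ndufa4l2, given above, lay highest at 0.58. Whether complex I changed more than complexes II to V was not tested.

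Markers of other cells moved in the same comparison, and their part in the falls of the respiratory genes was not tested. Shares over all genes were 16.9% lower and 11.9% higher. All 9 macrophage markers rose, and the log2 of their summed signal was 13.34 to 14.21 in denervated and 12.22 to 12.31 in sham arrays. Of 9 fibroblast markers 6 rose (15.11 to 15.61 in denervated and 14.83 to 15.14 in sham arrays), and of 6 endothelial markers 4 rose (11.06 to 11.46 in denervated and 10.58 to 10.75 in sham arrays). All 9 urothelial markers fell (14.21 to 14.57 in denervated and 14.92 to 15.11 in sham arrays), as did 5 of 6 Schwann cell markers (9.53 to 10.27 in denervated and 10.96 to 11.19 in sham arrays). Of 8 smooth muscle markers 5 fell and 1 rose (14.92 to 15.32 in denervated and 15.35 to 15.51 in sham arrays). Of 7 striated muscle markers 2 fell and 1 rose (10.48 to 11.34 in denervated and 10.53 to 11.03 in sham arrays), and of 9 adipocyte markers 2 fell and 1 rose (11.12 to 12.21 in denervated and 11.62 to 12.01 in sham arrays). No marker was at 0. The brown fat gene Ucp1 was dim, at 4.03 in denervated and 3.93 in sham arrays, as was the slow muscle gene Myh7, at 4.33 in denervated and 4.31 in sham arrays.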

How the data were processed

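RNA of 12 bladder samples was read on 1 Affymetrix array each. The authors deposited log2 expression values of 36685 probe sets; these come from RMA in Affymetrix Expression Console 1.4.1.46, per the submitters' processing notes. RMA subtracts background and quantile-normalizes, so differences between groups are relative to all genes. The genome build of the array is not given in the sources used here. Names came from GEO's annotation of the platform: 18511 carry 1 gene, 575 several (5 of these include a symbol that fits the rule, and were not used), and the probe set with the highest mean stood for each of 18166 genes. All 53 members matched RefSeq by gene identifier. Values were compared with limma 3.58.1 in R 4.3.3 (lmFit, eBayes, two-sided), and p-values were adjusted over all 18166 genes by Benjamini-Hochberg without a filter; the fit was tested on simulated data. Array medians lay between 5.82 and 5.90. On the first principal component (58.0% of variance) denervated replicate 2 lay at -5.84, the other 5 denervated arrays between 25.9 and 42.5 and sham arrays between -30.2 and -22.5. Precision is limited by having 6 arrays a group. No scan date or batch is given. Alternatives were a further quantile normalization, median centring, a fit without the dimmest 25%, a trended and robust eBayes, weighted arrays, averaged probe sets per gene, blocks by replicate number, and fits without each array in turn. Full values are given for the 3 largest changes per complex, for isoform pairs and for members that rose, and up to 3 called genes per further list are named. Other members are given by value. Members, lists and motifs were chosen with earlier results of these data known.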

Additional observations from a re-analysis of the deposited data

Results flagged for a closer look

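A gap between the outermost array and the rest of its group that was large against the group's range marked 12 of 108 groups examined (each member in each group, and the mean over the members); chance marks about 1 in 20. Denervated replicate 6 was the outlying low array for Uqcr11 (9.83), Uqcrh (10.37), Atp5me (8.34) and Atp5f1d (10.16). Denervated replicate 2 was the outlying high array for Atp5f1a (11.03) and Atp5pb (10.16) and the low one for Cox7b (9.64). Sham replicate 1 was the outlying low array for Cyc1 (9.04), Atp5me (8.68) and Atp5mg (8.53). Sham replicate 6 was high for Atp5f1b (11.33), and sham replicate 4 was high for Cox6a2 (6.47).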

How the results depend on the processing

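Under 19 alternatives the median change of the members stayed between -0.24 and -0.19, and 13 of the 27 called members kept their call in every fit that tested them, among them Sdha, Sdhc, Cyc1, Uqcrc2, Cox6c, Cox8a, Cox5b, Atp5f1a, Atp5f1b and Atp5pb. The other 14 lost it in at least 1 fit, and 0 of the 27 changed sign. With each array left out in turn, 17 to 26 members fell and 0 to 2 rose (Atp5pd, Atp5mc1l2 or Cox6c-ps1), and 11 to 19 further pathway genes fell and 0 to 1 rose. Of those genes, 1 rose without the dimmest 25% or with a trended, robust eBayes (Hif1a) and 1 with array weights (Ndufa4l2). With the replicate number as a block, which costs degrees of freedom, 16 members fell and 0 rose, and 10 pathway genes fell and 1 rose. Same-numbered arrays did not deviate together over all genes (correlations of -0.11 to 0.10). Such correlations cannot show whether same-numbered samples shared a day or batch, which is not given. The shift of Cox4i2 minus Cox4i1 lost its call after quantile normalization (0.40, adjusted p = 0.0649), and the cause was not tested. With the replicate block it was 0.44 (sign-flip test, adjusted p = 0.0781). That test flips the signs of 6 same-numbered differences, so few p-values are possible. Every difference of this pair was above 0, which gives the smallest p the test allows before adjustment. The block therefore cannot show whether the shift is weaker. Without 1 array the shift of Cox4i2 minus Cox4i1 was 0.35 to 0.53. That of Cox8b minus Cox8a was 0.28 to 0.42 and that of Atp5mc1 minus Atp5mc3 0.18 to 0.27. Signal over background is unknown and limits the dim members.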
